A study of Mus musculus with 6 samples.

Results

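Serine, glycine and Atf4 target genes were examined as 10 named genes of the 22910 that the array reaches through a RefSeq transcript. They comprise the enzymes that make serine from a glycolytic intermediate (Phgdh, Psat1, Psph), those that turn serine into glycine and one-carbon units (Shmt1, Shmt2, Mthfd2, Aldh1l2), the transcription factor Atf4, and Asns and Slc1a4, a pair of its target genes. The genes were chosen by name, but with earlier results of these data known, so the choice was not blind to the data. Each probe whose RefSeq transcript belongs to one of them was taken, which gave 17 probes. All 10 genes passed the filter on dim probes and were among the 14345 genes tested.

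The cultures were 2D-MAOs, airway organoids from the lung epithelium of C57BL/6 mice plated as a flat layer. All cultures were changed on day 3 to a medium lacking noggin and A83-01, which inhibit BMP and TGF-β receptor signalling, and were collected on day 7. In the TGF-β1 group (3 cultures) the cytokine was present from day 3, at a concentration that the microarray methods do not name, and the control group (3 cultures) received none. RNA of each culture, described by the study as a biological replicate, was hybridized to 1 Agilent array with a single dye, and the brightness of a probe on a log2 scale after quantile normalization is called its signal here. No level of one gene was set against that of another gene, since probes differ in brightness. In RNA from a whole culture, fewer cells of a type and less RNA per cell cannot be told apart.

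Serine synthesis branches off glycolysis at 3-phosphoglycerate, and serine then gives glycine and folate-bound one-carbon units, which feed nucleotide synthesis and the methylation cycle. Atf4 is translated preferentially when eIF2α is phosphorylated, as during amino acid shortage or stress of the endoplasmic reticulum (ER), and it drives genes for amino acid synthesis, uptake and tRNA charging. It binds a composite site, the C/EBP-ATF response element, together with C/EBP partners. In fibroblasts TGF-β is known to raise serine and glycine synthesis for collagen production, and the question here was what these genes did in airway epithelial cultures.

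The element, searched as TGATGNAA (N being any base) on both strands, is shown first because it is the composite site that Atf4 binds. The windows were the RefSeq promoters of assembly GRCm38.p6, 250 bases before to 50 bases after a gene's start. Of the 10 genes, 9 had a promoter in the table (Aldh1l2 had none), and the element occurred in 2 of these, Asns and Slc1a4. It was present in 1219 of 27025 genes (4.51%) of the whole table. No match was found in the promoters of Phgdh, Psat1, Psph, Shmt1, Shmt2, Mthfd2 and Atf4, which says only that these letters are not in those windows. In the list of other Atf4 targets described further on, 10 of 26 genes held it, among them Fgf21, Slc7a11 and Trib3, while 0 of 18 genes of folate metabolism did. Capitals mark the element as it reads on the printed strand. The first pair below are the 250 bases before the start of Asns (chr6:7693210-7693459, minus strand) and of Fgf21 (chr7:45615491-45615740, minus strand), a gene that rose, and in Fgf21 the element lies on the opposite strand.
Asns: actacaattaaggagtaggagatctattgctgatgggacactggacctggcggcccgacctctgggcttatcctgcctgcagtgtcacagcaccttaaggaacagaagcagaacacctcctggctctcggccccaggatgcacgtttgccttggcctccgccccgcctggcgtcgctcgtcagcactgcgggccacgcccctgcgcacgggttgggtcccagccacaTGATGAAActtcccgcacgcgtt
Fgf21: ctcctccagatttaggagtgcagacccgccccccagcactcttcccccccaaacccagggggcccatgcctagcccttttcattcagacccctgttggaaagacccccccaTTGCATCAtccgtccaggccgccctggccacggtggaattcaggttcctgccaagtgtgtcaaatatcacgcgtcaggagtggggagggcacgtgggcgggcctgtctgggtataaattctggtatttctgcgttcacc
The element of Slc1a4 spans the start of the gene, so a short window is given with 10 bases on each side, read on the strand that shows it as TGATGNAA (chr11:20332700-20332727, plus strand). The same form is used for the 2 elements of Slc7a11 (chr3:50443662-50443689, minus strand, and chr3:50443643-50443670, plus strand) and for Trib3 (chr2:152344029-152344056, plus strand). Together with Fgf21, Slc7a11 and Trib3 are those of the other Atf4 targets with values given below whose promoters held the element. The promoter of Pycr1, a target that was not tested, held it too. The matches among tRNA synthetases and ER genes are given as counts only.
Slc1a4: aggctggagaTGATGCAAcgcaggaggc
Slc7a11, element on the gene's strand: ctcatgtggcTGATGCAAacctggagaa
Slc7a11, element on the other strand: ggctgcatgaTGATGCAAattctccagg
Trib3: cccgcccggcTGATGTAAacctgagcta

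**Figure D1:**
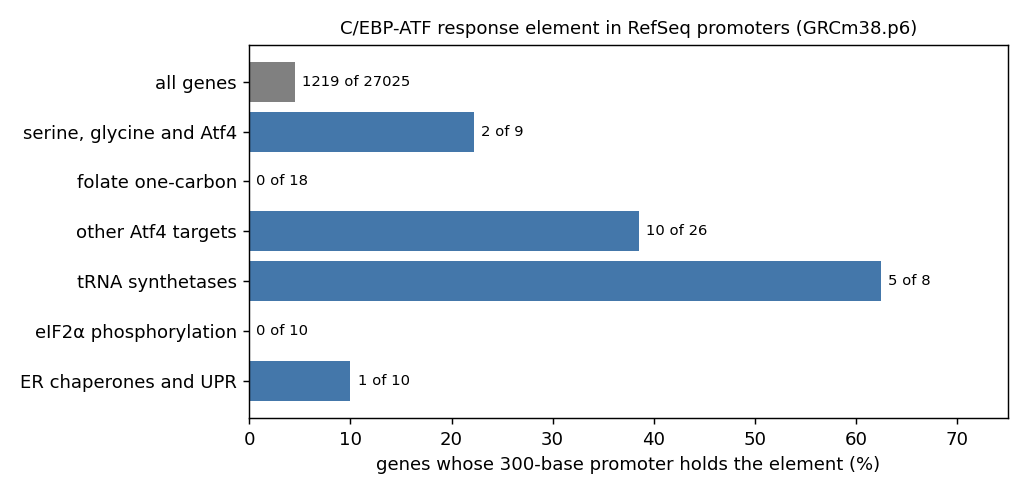
Share of genes (%) whose RefSeq promoter of 300 bases holds the C/EBP-ATF response element, for all genes of the table and for each gene list, with the counts beside the bars. It was 4.51% over all genes, 22.2% over the serine, glycine and Atf4 genes, 38.5% over the other Atf4 targets and 62.5% over the tRNA synthetases, where 5 of only 8 genes with a promoter held it.

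In TGF-β1-treated 2D-MAOs, 9 of the 10 genes had a lower mean signal than in control 2D-MAOs, and Atf4 was the exception. None of the 10 genes passed the test over all 6 arrays (0 called, limma with a Benjamini-Hochberg adjusted p under 0.05), where 2.04% of all genes tested were called in either direction and 0.404% were called lower. At an unadjusted p under 0.05, limma gave 5 of the 10 as lower (Phgdh, Psat1, Mthfd2, Aldh1l2 and Asns), against 10.7% of all genes tested. The methods' t-test, which is unpaired, gave 4 at an unadjusted 0.05 (Mthfd2, Aldh1l2, Asns and Slc1a4), against 8.00% of all genes, and 0 after adjustment. In 5 genes (Phgdh, Mthfd2, Aldh1l2, Asns and Slc1a4) every TGF-β1 array lay below every control array, which held for 13.5% of all genes tested. Aldh1l2 entered the test only through the controls, since its probe was above background on no TGF-β1 array. Of the 9 genes detected in both groups, limma gave 4 unadjusted, the methods' t-test gave 3, and 4 did not overlap. The median log2 fold change over the 10 genes was -0.28, with -0.03 over all genes tested, of which 54.2% were lower. With 3 arrays against 3, an exact permutation test on 1 gene cannot give a p below 0.1.

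The arrays of 1 group did not all behave alike. Relative to the control means, the median of the 10 genes was -0.45 on the array of TGF-β1 replicate 1, -0.36 on that of replicate 2 and -0.19 on that of replicate 3, on the log2 scale. All 6 arrays were on 1 slide, and the replicate 3 arrays of both groups lay in slide row 2, the other 4 in slide row 1. The control arrays lay in slide columns 1 and 3 and the TGF-β1 arrays in columns 2 and 4, so column and treatment cannot be told apart. Over all genes tested, TGF-β1 replicate 3 lay at a Euclidean distance of 61.1 and 62.3 from the other TGF-β1 arrays, which were 32.3 apart, and of 54.4 to 60.9 from the control arrays. A list of 8 hypoxia response genes also separated the replicate 3 arrays: the log2 of its summed signal was 16.22 in control replicate 3 and 16.33 in TGF-β1 replicate 3, and 15.57 to 15.90 on the other 4 arrays. For the 10 genes, values are therefore given with and without TGF-β1 replicate 3, and within each slide row. The part of slide position or of the hypoxia response genes in them was not tested.

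**Figure D2:**
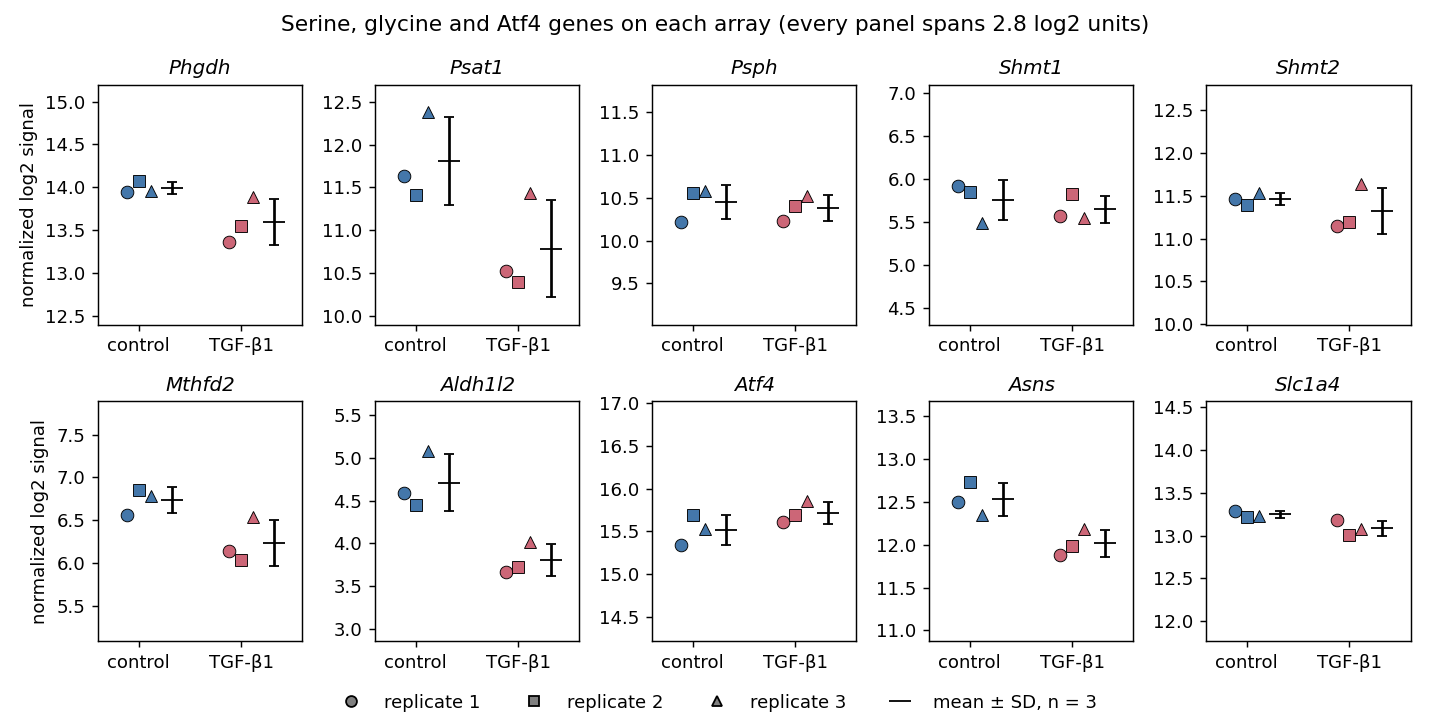
Normalized log2 signal (y axis, a span of equal size in each panel) of the 10 genes on each of the 6 arrays, with the replicate shown by the symbol and the mean ± SD (n = 3) of each group beside it. In Psat1 and Aldh1l2 both groups show replicate 3 highest, and in Phgdh and Shmt2 TGF-β1 replicate 3 sits at 13.89, just below the controls, and at 11.64, above them.

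Of the serine synthesis enzymes, Psat1 had the largest difference and Psph the smallest. Phgdh, which catalyses the first and committed step, had signals of 13.95, 14.07 and 13.96 on the control arrays (replicates 1, 2 and 3) and of 13.36, 13.55 and 13.89 on the TGF-β1 arrays. The groups did not overlap, although TGF-β1 replicate 3 was just under the lowest control. The mean was lower by 1.31-fold, a log2 fold change of -0.39 with a standard error (SE) of 0.15 and an adjusted p of 0.201 in limma. It was -0.54 without TGF-β1 replicate 3 (adjusted p = 0.0343). Within slide row 1 it was -0.56, and the single pair of arrays in slide row 2 differed by -0.07.

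Psat1 encodes the aminotransferase of the second step. Its signals were 11.63, 11.41 and 12.38 in the controls and 10.52, 10.40 and 11.43 after TGF-β1. TGF-β1 replicate 3 was level with the second control, so the groups overlapped slightly, while in each slide row the TGF-β1 arrays were below the controls. The difference in means of -1.02 (adjusted p = 0.170, SE 0.35) corresponded to 2.03-fold lower, and the 95% interval reached from -1.85 to -0.19. Its second probe showed -1.31, with no overlap between the groups. The difference was -1.06 in slide row 1 and -0.95 in slide row 2, and with the slide row as a block Psat1 passed (adjusted p = 0.0181). It passed too without TGF-β1 replicate 3, at -1.35 (adjusted p = 0.0342).

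Psph, the phosphatase that releases serine, had signals of 10.22, 10.56 and 10.58 in the controls and of 10.23, 10.40 and 10.53 after TGF-β1. The groups overlapped throughout. Their means differed by -0.07 (adjusted p = 0.800), with a 95% interval from -0.41 to 0.28.

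Shmt1 and Shmt2, the cytosolic and mitochondrial enzymes that convert serine to glycine, overlapped between the groups. Shmt1 had signals of 5.92, 5.85 and 5.49 in the controls and of 5.56, 5.83 and 5.54 after TGF-β1. Its means differed by -0.11 (adjusted p = 0.692, 95% interval -0.48 to 0.26), and scaling to the 75th percentile turned this to 0.041. A second and dimmer probe of Shmt1 was detected above background in all 3 controls but in no TGF-β1 culture, so it met the filter through the controls alone. It gives no support of its own for a lower level. As a bound it was at least 1.63-fold lower. Such a bound sets the mean of the brighter group against the lowest signal at which probes of each dim array were well above background, or the probe's own signal where that was higher. Shmt2 had signals of 11.46, 11.40 and 11.53 in the controls and of 11.15, 11.19 and 11.64 after TGF-β1. Its TGF-β1 replicates 1 and 2 were below all controls and replicate 3 was above them. The log2 fold change was -0.14 (adjusted p = 0.615, 95% interval -0.50 to 0.23), and its second probe gave -0.49.

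Mthfd2 and Aldh1l2 act in mitochondria on the one-carbon units that Shmt2 releases. Mthfd2, a dehydrogenase and cyclohydrolase, had signals of 6.57, 6.86 and 6.79 in the controls and of 6.14, 6.03 and 6.54 after TGF-β1. All TGF-β1 arrays were below the controls, with replicate 3 nearest to them. The mean was 1.41-fold lower (-0.50 on the log2 scale, SE 0.16, adjusted p = 0.161), and its second probe gave -0.39, with TGF-β1 replicate 3 just above the highest control. With normexp background the value was -0.28. It was -0.65 without TGF-β1 replicate 3 (adjusted p = 0.0290), -0.63 within slide row 1, and in the pair of slide row 2 -0.25.

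Aldh1l2 oxidizes formyl-tetrahydrofolate and yields NADPH. Its signals were 4.59, 4.45 and 5.08 in the controls and 3.67, 3.73 and 4.02 after TGF-β1, and the groups did not overlap. The probe was detected above background in all 3 controls and in 0 of 3 TGF-β1 cultures, so that the difference is a bound, at least 1.84-fold lower (limma adjusted p = 0.0747). These signals lie close to background, and under normexp background correction with an offset of 50 the log2 fold change was -0.17 in place of -0.90. Because the filter was met through the controls alone, its p-values give no support of their own for a lower level. The second probe gave -0.96 with overlapping groups, and was well above background on 2 control arrays and on 1 TGF-β1 array.

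Atf4 itself was the only one of the 10 genes with a higher mean after TGF-β1. Its signals were 15.34, 15.69 and 15.53 in the controls and 15.61, 15.69 and 15.85 after TGF-β1, and the groups overlapped. The difference in means was 0.20 (SE 0.13, adjusted p = 0.400, 95% interval -0.12 to 0.51), but -0.077 when arrays were scaled to the 75th percentile, and the second probe of Atf4 gave -0.16. The direction of the Atf4 transcript was thus not settled by these arrays, and the arrays do not measure its protein, at which level Atf4 is mostly controlled.

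Asns, the gene of asparagine synthetase and a widely used readout of Atf4, had signals of 12.50, 12.73 and 12.35 in the controls and of 11.88, 11.99 and 12.19 after TGF-β1. Every TGF-β1 array was below every control. The mean was 1.42-fold lower, at -0.51 on the log2 scale (SE 0.14, adjusted p = 0.125), and the second probe of Asns gave -0.74, again without overlap. Leaving out TGF-β1 replicate 3 gave -0.60 (adjusted p = 0.0438), slide row 1 gave -0.68, and the pair of slide row 2 gave -0.17. Slc1a4, a transporter of alanine, serine and cysteine, had the tightest signals, 13.29, 13.22 and 13.23 in the controls and 13.18, 13.00 and 13.07 after TGF-β1. These did not overlap either, yet the log2 fold change was only -0.16 (adjusted p = 0.368, 95% interval -0.40 to 0.08), and -0.35 with arrays scaled to the 75th percentile. Asns and Slc1a4 are those of the 10 genes with the element in the promoter.

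**Figure D3:**
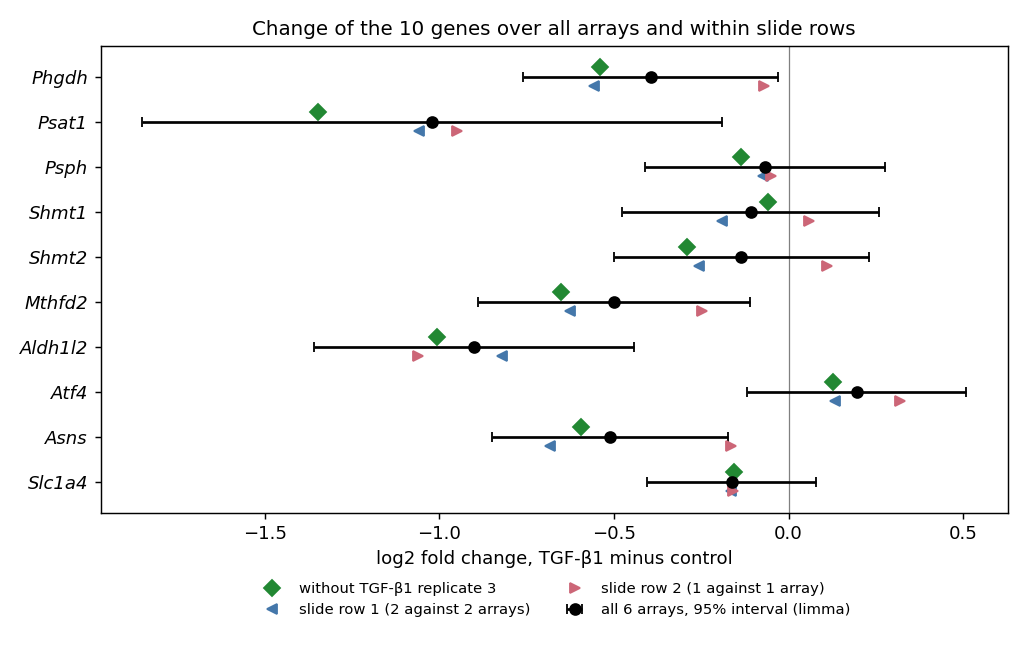
Log2 fold change (x axis, TGF-β1 minus control) of each of the 10 genes over all 6 arrays with its 95% interval from limma, without TGF-β1 replicate 3, within slide row 1 (2 arrays against 2) and in slide row 2 (1 against 1, no interval). Psat1 lay at -1.06 in slide row 1 and at -0.95 in slide row 2, whereas Phgdh, Mthfd2 and Asns lay between -0.68 and -0.56 in slide row 1 and between -0.25 and -0.07 in slide row 2. The points of Aldh1l2 set controls against signals not above background.

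Without TGF-β1 replicate 3, 5 of the 10 genes passed as lower (Phgdh, Psat1, Mthfd2, Aldh1l2 and Asns) and none as higher, or 4 of the 9 genes detected in both groups, with Aldh1l2 left aside. In that fit 6.27% of all genes tested were called lower. Over all alternatives, the adjusted p ran from 0.0168 to 0.508 for Phgdh, from 0.0126 to 0.444 for Psat1, from 0.0178 to 0.431 for Mthfd2, from 0.00658 to 0.349 for Aldh1l2 and from 0.00992 to 0.376 for Asns. Each of these 5 genes was thus on either side of the threshold, depending on the arrays and weights used. The same 5 genes passed in slide row 1 alone, a fit chosen after seeing the data, in which 13.0% of all genes were called lower, and with array weights, where 17.9% were. With the slide row as a block Psat1 and Aldh1l2 passed, against 0.732% of all genes called lower, and with the replicate number as a block Psat1, against 0.125%. The differences in slide row 2, which have no test, were -0.95 for Psat1 but 0.06 for Shmt1, 0.11 for Shmt2 and 0.32 for Atf4. Whether the response of these genes differed between the slide rows was not tested.

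Further enzymes and carriers of folate one-carbon metabolism were followed in a list of 21 genes, of which 20 were tested (Amt was not). In this list 15 genes had lower and 5 had higher means, with a median log2 fold change of -0.15, and 0 passed. At an unadjusted p under 0.05, limma gave 2 of them, both lower, and the methods' t-test gave 1 (0 adjusted), where 10.7% and 8.00% of all genes tested were lower at these levels. The lowest values were those of Gcsh, a subunit of the glycine cleavage system (-0.34, adjusted p = 0.203), of Sfxn1, which carries serine into mitochondria (-0.33, adjusted p = 0.167), and of Ahcy, which hydrolyses S-adenosylhomocysteine (-0.32, adjusted p = 0.258). The highest were Aldh1l1, the cytosolic relative of Aldh1l2 (0.44, adjusted p = 0.285), the folate carrier Slc19a1 (0.20) and Mthfd2l (0.14), the last of which was -0.086 when the probes of the gene were averaged.

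Other genes described as Atf4 targets did not move in a common direction. Of 29 tested (of 30 in the list, Pycr1 not being tested), 13 were higher and 16 lower, with a median of -0.05, and 2 rose while 0 fell, where 1.63% of all genes tested were called higher. At an unadjusted p under 0.05 limma gave 3 higher and 2 lower, where 11.4% and 10.7% of all genes were, and the methods' t-test gave 6 (0 adjusted), where 17.1% of all genes were called in either direction. Fgf21, a secreted metabolic hormone, had signals of 4.02, 4.31 and 5.27 in the controls and of 6.81, 6.33 and 6.37 after TGF-β1. All TGF-β1 arrays were above the controls, of which 2 of 3 were well above background. It rose by 1.97 on the log2 scale (SE 0.33, adjusted p = 0.0393), or by 0.76 with normexp background (adjusted p = 0.0239). Ddit4, an inhibitor of mTORC1 that also responds to hypoxia and glucocorticoids, had signals of 14.51, 14.43 and 14.52 in the controls and of 15.32, 15.28 and 15.02 after TGF-β1. Again the groups did not overlap, and TGF-β1 replicate 3 was the nearest to the controls. It rose by 0.73 (SE 0.12, adjusted p = 0.0377), and with arrays scaled to the 75th percentile the difference was 0.47 (adjusted p = 0.0814).

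The size of both increases stayed similar with each array left out, 1.71 to 2.34 for Fgf21 and 0.67 to 0.82 for Ddit4, but the calls were often lost with fewer arrays. Fgf21 no longer passed without control replicate 1 (adjusted p = 0.104), control replicate 2 (0.142), TGF-β1 replicate 1 (0.157) or TGF-β1 replicate 2 (0.118). Ddit4 no longer passed without control replicates 1 (0.142), 2 (0.142) or 3 (0.0644) or TGF-β1 replicates 1 (0.170) or 2 (0.160). Both were also lost without the filter on dim probes (0.134 for Fgf21 and 0.0741 for Ddit4) and with the replicate number as a block (0.0996 and 0.0992). Both passed without TGF-β1 replicate 3, and so did Ddit3, the gene of CHOP, as lower (-0.59, adjusted p = 0.0225, 0.00808 to 0.336 over all alternatives). In that fit 2 of the 29 genes were called higher and 2 lower, where 9.08% and 6.27% of all genes tested were. The difference of Ddit3 over all arrays was -0.49 (adjusted p = 0.105). Other large differences were those of Stc2, a secreted glycoprotein (-0.96, adjusted p = 0.226), of Slc7a11, the cystine and glutamate exchanger (-0.55, adjusted p = 0.131), and of Trib3, a pseudokinase that restrains Atf4 (0.39, adjusted p = 0.352). Slc7a11 and Trib3, whose promoters both hold the element shown above, thus had means in opposite directions.

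Genes of the 12 cytosolic tRNA synthetases, many of them Atf4 targets, were split into 8 higher and 4 lower, with a median of 0.02, and 0 passed. Unadjusted, limma and the methods' t-test gave 1 each (0 after adjustment of the latter), where 10.7% and 8.00% of all genes were lower. The lowest were Yars (-0.37, adjusted p = 0.201), Sars, which charges the tRNA for serine (-0.30, adjusted p = 0.263), and Wars (-0.19). Yars passed as lower without TGF-β1 replicate 3 (-0.50, adjusted p = 0.0338, 0.0125 to 0.507 over all alternatives). It was the only 1 of the 12 called in that fit, where 6.27% of all genes tested were called lower. Lars (0.19), Gars (0.11) and Mars1 (0.10) were the highest, and with arrays scaled to the 75th percentile Gars was -0.10 and Mars1 -0.0074.

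Upstream of Atf4, 13 genes of the eIF2α kinases, their regulators and the eIF2B subunits were tested, with 4 higher, 9 lower, a median of -0.10 and 0 passed. At an unadjusted p under 0.05 limma gave 1 higher and 2 lower, where 11.4% and 10.7% of all genes were, and the methods' t-test gave 4 (0 adjusted), where 17.1% were called. Eif2ak3, the gene of the kinase PERK at the ER, had the highest value (0.39, adjusted p = 0.230), followed by Gcn1 (0.37, -0.13 when its probes were averaged) and Eif2ak4, the gene of the amino acid sensor GCN2 (0.28, adjusted p = 0.245). Impact, an inhibitor of GCN2 activation, was at -0.32 (adjusted p = 0.165), Eif2b5 at -0.29 and Eif2b1 at -0.23.

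The other arms of the response to ER stress were followed in 12 genes of chaperones and the unfolded protein response. Here 11 genes had higher means and 1 a lower mean, with a median of 0.32, and 0 passed. Unadjusted, limma gave 4 higher, where 11.4% of all genes were higher at that level, and 1 lower, where 10.7% were, and the methods' t-test gave 3 (0 adjusted), where 17.1% were called. Hspa5, the chaperone BiP, was at 0.64 (adjusted p = 0.122), the disulfide isomerase Pdia4 at 0.56 (adjusted p = 0.246), Hsp90b1, the chaperone GRP94, at 0.55 (adjusted p = 0.103), and Herpud1, an ER membrane protein of protein degradation, at -0.43 (adjusted p = 0.201). Without TGF-β1 replicate 3, 5 of the 12 passed as higher, Hspa5 (0.79), Pdia4 (0.84) and Hsp90b1 (0.64) among them, where 9.08% of all genes were called higher. The difference between these genes and the serine and glycine genes was not tested.

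**Figure D4:**
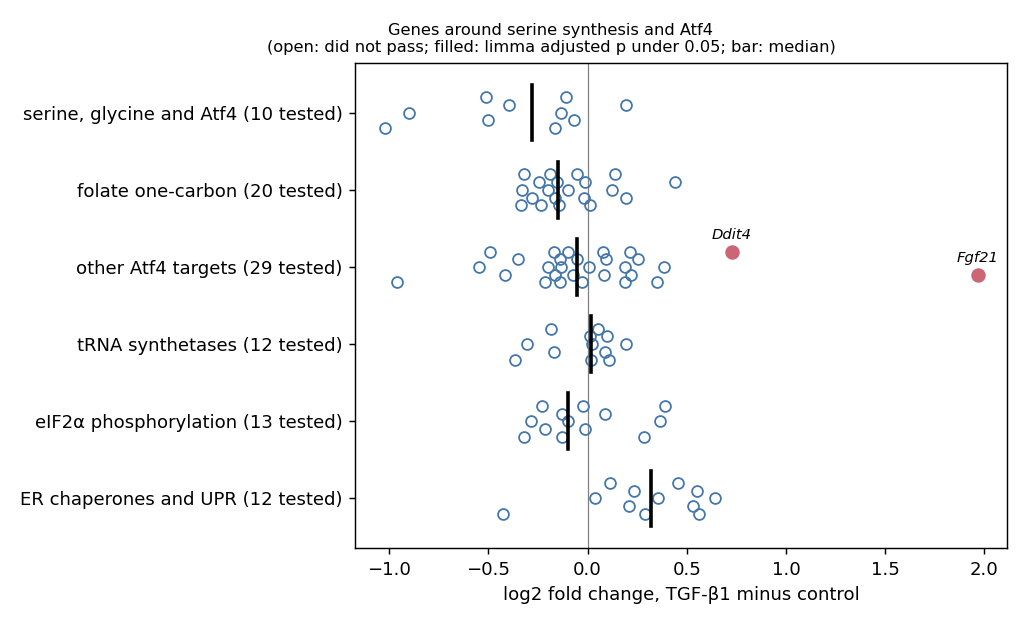
Log2 fold change (x axis, TGF-β1 minus control) of every gene tested in each list, with 1 point per gene, filled where the limma adjusted p was under 0.05, and the list's median as a bar. Medians ran from -0.28 for the serine, glycine and Atf4 genes to 0.32 for the ER chaperones and unfolded protein response (UPR), and Fgf21 and Ddit4 are the filled points.

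As checks of labels and cell make-up, all 6 TGF-β target genes had higher means after TGF-β1 and 3 passed (Tgfbi, Pmepa1 and Fn1). Of 12 airway epithelium markers, 11 were well above background on all arrays and Muc5ac on none, and the log2 of their summed signal was 17.68 to 17.79 in the controls and 17.77 to 18.24 after TGF-β1. Of these 11, 7 had higher and 4 had lower means after TGF-β1, and 1 passed. Foxj1, a regulator of ciliated cells, had signals of 7.56, 7.55 and 7.64 in the controls and of 9.02, 9.09 and 9.05 after TGF-β1, and it rose by 1.47 (adjusted p = 0.00239). Scgb1a1, the club cell secretory protein, had signals of 10.83, 10.18 and 7.77 in the controls and of 7.00, 7.57 and 7.42 after TGF-β1. It was at -2.27 without overlap between the groups (adjusted p = 0.158), but control replicate 3 was close to the TGF-β1 arrays. Krt5 of basal cells at 1.37 with overlapping groups (adjusted p = 0.178) and Epcam at 0.82 (adjusted p = 0.115) did not pass either. Fibroblast markers were well above background on all arrays of the group for 3 of 8 genes in the controls and 5 of 8 after TGF-β1, with Pdgfrb, Lum and Tcf21 on no array, and Col1a1 and Col1a2 were at least 2.16-fold and 2.38-fold higher. The log2 of their summed signal was 9.15 to 9.32 in the controls and 9.44 to 11.39 after TGF-β1, where it was lowest in replicate 3. Of 7 leukocyte markers 3 were well above background in both groups, with summed log2 signals of 12.44 to 12.67 and 12.97 to 13.31, and Ptprc, Adgre1 and Lyz2 were so on no array. Of 6 endothelial markers, 1 was well above background and 5 were so on no array. The part of these cell types in the values of the serine, glycine and Atf4 genes was not tested.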

How the data were processed

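Airway organoid cultures of mouse lung (3 control, 3 TGF-β1) were each measured on 1 single-colour Agilent array. The authors deposited the intensity of each spot on a linear scale, background-subtracted by Agilent Feature Extraction 11.0.1.1 (named in the submitters' processing notes) and without normalization between arrays, with other columns per the file headers that mark outlier spots and spots well above background. Between 55.0% and 59.0% of probes per array were well above background, no spot was saturated (0), and the 6 arrays shared 1 slide and 1 scan. The number of arrays limits the precision.

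Control and outlier spots were left out and spots of a probe averaged. RefSeq accessions in the files were matched to gene symbols of assembly GRCm38.p6, which named 32991 of 56599 probes (58.3%). Following the study's methods, log2 signals were normalized by quantiles. A filter kept probes detected well above background by the image software in 3 or more of 6 arrays, the probe with the highest mean stood for its gene, and the groups were compared with limma 3.58.1 in R 4.3.3 without a block, with Benjamini-Hochberg adjustment over the 14345 genes tested and a threshold of 0.05. The exact permutation test of single genes was two-sided. The fit was tested on simulated data. Normexp used median signals, since the files hold no mean signals.

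The text names all 10 genes and, of the other pathway lists, those that passed plus the 3 largest changes in each direction. Of the marker, hypoxia and TGF-β lists it gives counts and ranges with at most 3 genes, and markers named beyond these were chosen after their values were seen. The genes, the lists and the hypoxia and marker lists were chosen with earlier results of these data known. The element was searched in RefSeq promoters of GRCm38.p6. Alternatives covered scaling, background, filters, probe choice, variance prior, array weights, blocks, the methods' t-test and each array left out in turn.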

Additional observations from a re-analysis of the deposited data

How the results depend on the processing

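With 3 arrays a group, small differences of these genes could not be resolved, and values of Aldh1l2, Shmt1 and Fgf21 close to background depend on how background is treated. The replicate numbers did not pair the arrays (correlations of deviations -0.0079, 0.33 and -0.05), so the replicate block is an alternative only. It gave 1 call among the 10 genes, Psat1 (adjusted p = 0.0459), and 0 among the other Atf4 targets. In place of 0 calls over all arrays, the 10 genes gave 5 calls, all lower, with array weights and in slide row 1 alone (chosen after seeing the data). There 17.9% and 13.0% of all genes were called lower. The 10 genes gave 2 with the slide row as a block (0.732% of all genes lower), 4 by the methods' t-test unadjusted (8.00%), and 0 to 5 with each array left out. The 5 came without TGF-β1 replicate 3 (6.27%). Of the 9 genes detected in both groups, these fits called 4, 4, 1, 3 and 4, in the order given. The genes that were lower without overlap numbered 8 in slide row 1, against 5, and 5 to 7 with each array left out, but fewer arrays overlap less often. Of all genes tested, 38.9% were lower without overlap in slide row 1 and 15.4% to 30.1% with each array left out. The median, -0.28, was -0.16 for genes well above background on all 6 arrays, -0.42 with probes averaged, -0.41 in slide row 1 and -0.42 to -0.24 with each array left out. The other Atf4 targets, with 2 calls among 29 genes, gave 1 under scaling to the 75th percentile and with detection on all 6 arrays. They gave 0 without a filter and by the methods' t-test adjusted. With array weights they gave 7, where 34.7% of all genes were called. The count was 6 by that t-test unadjusted (17.1% of all genes) and in slide row 1 (26.8%), and 0 to 4 with each array left out. With array weights, by the unadjusted t-test and in slide row 1, the folate genes gave 3, 1 and 2 calls, the tRNA synthetases 2, 1 and 2, the eIF2α genes 6, 4 and 1 and the ER genes 7, 3 and 6, of 20, 12, 13 and 12 genes, where 34.7%, 17.1% and 26.8% of all genes were called. A trended and robust variance prior gave 1 ER gene, Hsp90b1, and with each array left out the tRNA synthetases gave 0 to 1, the ER genes 0 to 5. Signs turned for Psph (0.012 without TGF-β1 replicate 1, -0.18 to 0.012 with each array left out), for Shmt1 (0.041), Atf4 (-0.077), Gars (-0.10) and Mars1 (-0.0074) under scaling to the 75th percentile, and for Mthfd2l (-0.086) and Gcn1 (-0.13) with probes averaged. The causes were not tested. Of 179 values of the 10 genes under alternatives, 154 kept direction and side of the threshold, 22 passed it and 3 turned.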
